A study of Mus musculus with 14 samples.

Results

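Hindstomach epithelium from embryos labelled as Gata4 conditional knockouts (5 libraries) was compared with forestomach epithelium from control embryos (3 libraries), which makes 8 of the 14 libraries of the study. The libraries were taken by their labels: those from the hindstomach of mutants, and those from the forestomach of controls. The study sequenced RNA from epithelial cells of mouse embryonic stomachs at stage E14.5, in both regions of the stomach and in embryos in which Gata4 was conditionally removed or conditionally added. The comparison asks how far hindstomach epithelium labelled as lacking GATA4 differs from the epithelium of the region that normally has little of it.

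The knockout libraries carry the genotype label G4 cKO mutant and are numbered 1 to 5. The forestomach libraries carry the label G4 cKI control and are numbered 2, 3 and 5. The source labels call the control cells of both regions wild type and the knockout cells GATA4 knock out. The compared embryos thus came from different crosses and differ in region, genotype label and cross at once. The hindstomach libraries of the G4 cKO control (3 libraries, numbered 2, 3 and 4) are given for context only. The promoter that drives the recombination, the strain, the part of Gata4 that is removed and whether embryos were pooled are not stated in the labels. Nor do the labels say that samples within a group are separate embryos or litters, so each p-value reflects the spread among these libraries, part of which may be technical.

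The mouse stomach has a proximal forestomach, which forms a stratified, keratinised epithelium like that of the oesophagus, and a distal hindstomach, which forms a columnar, glandular epithelium with acid-producing and pepsinogen-producing cells. GATA4 is a zinc-finger transcription factor of the gut endoderm, and its expression ends near the border between these regions. In stratified epithelia the basal layer depends on the transcription factor p63, encoded by Trp63, and expresses Krt5, while columnar gastric cells express the tight-junction gene Cldn18.

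Values are FPKM as the authors deposited them, that is, fragments scaled to gene length and to the mapped total. Fold changes are differences in mean log2(FPKM + 1), knockout hindstomach minus forestomach control, with a standard error (SE) and a Benjamini-Hochberg adjusted p from limma over 12694 genes. Genes were called higher or lower at an adjusted p under 0.05. The shallowest of the 14 libraries had 48.4% of the relative depth of the deepest, and absolute depth is unknown. The libraries also differed in how values varied with the GC content of transcripts. This slope was above 0 in knockout 4 and 5 and in forestomach control 2 and 3, at 0.095 to 0.816 log2 per 10 points of GC. It was below 0 in knockout 1, 2 and 3 and in forestomach control 5, at -0.609 to -0.415. In the 3 hindstomach controls it was above 0, at 0.563 to 0.609. Forestomach control 5 also stood apart in the keratins given next, and knockout 5 in its level of Gata4.

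Gata4 was higher in the knockout hindstomach than in the forestomach. It had 16.9, 19.4, 13.02, 32.1 and 59.6 FPKM in knockout 1 to 5, against 4.50, 1.33 and 0.573 FPKM in forestomach control 2, 3 and 5. The groups did not overlap (log2 fold change 3.21 ± 0.47 SE, adjusted p = 0.00102), and a two-sided exact permutation test gave p = 0.0179, the smallest that the 56 possible splits allow. Hindstomach control libraries had 65.7, 61.5 and 64.9 FPKM. The library labelled knockout 5 therefore lay just under the hindstomach controls, and the other 4 knockout libraries lay between the regions. As a group the knockout libraries were not called lower than hindstomach control in Gata4 (log2 fold change -1.37 ± 0.47 SE, adjusted p = 0.0672). FPKM covers the whole gene, so these levels do not show how much of the transcript carries the deletion, and directions drawn from the library labelled knockout 5 rest on its label alone. Of the other GATA factors measured, Gata5 was higher in knockout libraries at 2.36, 1.65, 1.203, 3.26 and 7.93 FPKM, against 0.982, 0.168 and 0.0868 FPKM in forestomach (log2 fold change 1.46 ± 0.43 SE, adjusted p = 0.0405), a call that was lost without any of 5 of the 8 libraries (adjusted p up to 0.122). Gata6 had 14.3, 11.4, 13.95, 11.8 and 19.0 FPKM in knockout and 12.1, 4.41 and 12.3 FPKM in forestomach libraries, which overlapped (log2 fold change 0.60 ± 0.28 SE, adjusted p = 0.184). Gata3, a GATA factor of stratified epithelia, was lower at 0.619 to 1.61 FPKM in knockout libraries, against 1.70 to 3.22 FPKM in forestomach (log2 fold change -0.77 ± 0.18 SE, adjusted p = 0.0158); without forestomach control 3 the adjusted p was 0.0721.

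The 5 regional markers separated the knockout hindstomach from the forestomach in both directions. Krt5, the keratin of basal stratified cells, had 1.995, 1.79, 4.12, 1.43 and 2.68 FPKM in knockout 1 to 5, against 301, 381 and 22.4 FPKM in forestomach control 2, 3 and 5 (log2 fold change -5.41 ± 0.92 SE, adjusted p = 0.00262). Krt13, a keratin of the layers above the basal layer in the oesophagus and forestomach, had 0.188, 0, 0.866, 0 and 0.0764 FPKM in knockout libraries, against 287, 173 and 4.10 FPKM in forestomach (log2 fold change -5.74 ± 1.03 SE, adjusted p = 0.00348). Both keratins were lower in every knockout library than in any forestomach library, and forestomach control 5 was far below the other two.

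Trp63 had 15.6, 22.9, 30.7, 4.72 and 5.81 FPKM in knockout libraries, against 35.4, 66.8 and 61.2 FPKM in forestomach (log2 fold change -1.96 ± 0.51 SE, adjusted p = 0.0233). Every knockout library was below every forestomach library and above every hindstomach control, where Trp63 had 2.94, 1.61 and 0.949 FPKM (log2 fold change 2.34 ± 0.51 SE, adjusted p = 0.0145 for knockout against hindstomach control). The lower level than in forestomach was no longer called without forestomach control 3 (adjusted p = 0.0835). Trp63 therefore lay between the regions while Krt5 and Krt13 were at hindstomach levels, 1.94, 1.29 and 0.973 FPKM for Krt5 in the hindstomach controls.

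Cldn18 had 15.7, 3.41, 7.39, 8.28 and 14.6 FPKM in knockout libraries, against 0.213, 0.521 and 0 FPKM in forestomach (log2 fold change 3.00 ± 0.39 SE, adjusted p = 0.000446). Fzd5, a receptor for Wnt ligands, had 10.5, 10.1, 9.65, 15.0 and 18.2 FPKM in knockout libraries, against 0.889, 1.08 and 0.827 FPKM in forestomach (log2 fold change 2.79 ± 0.22 SE, adjusted p = 1.1e-05). Neither marker overlapped between the groups, and the adjusted p stayed under 0.05 for both without any 1 of the 8 libraries. In hindstomach controls Cldn18 had 229, 131 and 257 FPKM and Fzd5 had 31.0, 32.4 and 28.3 FPKM, so the knockout libraries lay nearer to them in Fzd5 than in Cldn18.

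**Figure D1:**
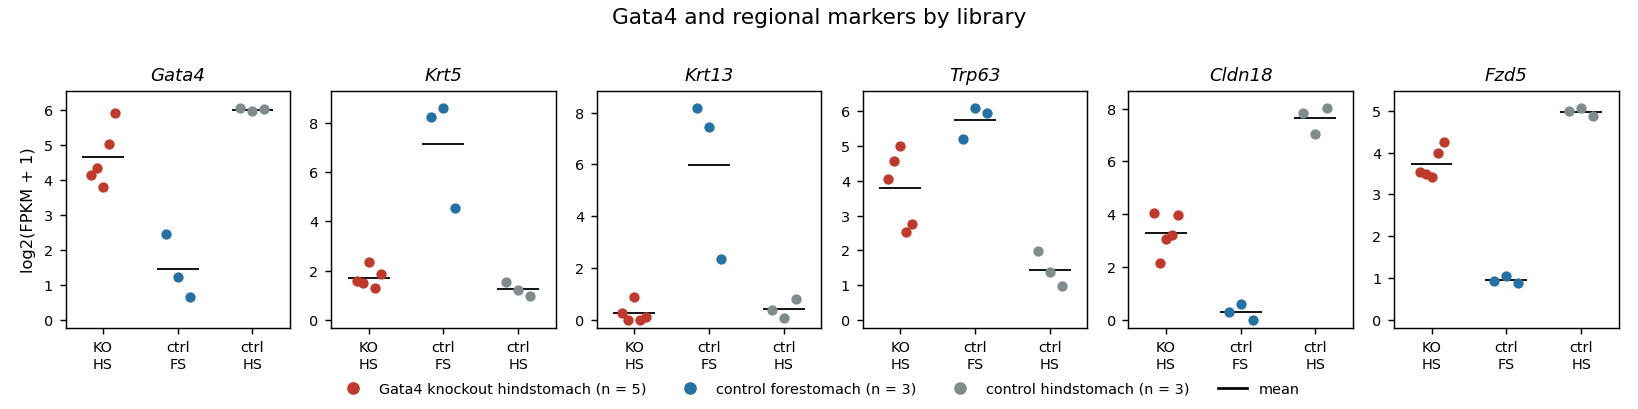
Level of Gata4 and of the 5 regional markers, as log2(FPKM + 1), in each knockout hindstomach (KO HS), control forestomach (ctrl FS) and control hindstomach (ctrl HS) library; points are libraries in the order of their numbers, lines are group means, and each panel has its own axis. Krt5 and Krt13 sit with the hindstomach controls, Trp63 and Cldn18 lie between the regions, and the fifth knockout library has the highest Gata4 of its group.

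The promoters of 3 of these genes are shown because the genes lay on opposite sides of the comparison. Each window holds 250 bases before and 50 after the transcription start, read on the strand of the gene from RefSeq (mouse build GRCm38.p6; the submitters' processing notes name mm9, and only gene names link the windows to the table). They were searched on both strands for AGATAA and TGATAA, core motifs of GATA factors that differ in their first base. Matches are in capitals. Of 32851 promoters of this length in the same set, 18.6% held at least 1 match. The Cldn18 window below is at chr9:99717218-99717517, the Krt5 window at chr15:101712856-101713155 and the Fzd5 window at chr1:64737701-64738000, all on the minus strand and each spanning the start of the first exon.
Cldn18: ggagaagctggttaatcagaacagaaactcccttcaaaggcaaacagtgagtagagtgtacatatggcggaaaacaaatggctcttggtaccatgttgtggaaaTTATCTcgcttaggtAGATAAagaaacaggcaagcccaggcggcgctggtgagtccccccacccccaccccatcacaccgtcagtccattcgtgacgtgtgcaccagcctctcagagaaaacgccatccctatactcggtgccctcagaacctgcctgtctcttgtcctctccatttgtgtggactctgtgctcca
Krt5: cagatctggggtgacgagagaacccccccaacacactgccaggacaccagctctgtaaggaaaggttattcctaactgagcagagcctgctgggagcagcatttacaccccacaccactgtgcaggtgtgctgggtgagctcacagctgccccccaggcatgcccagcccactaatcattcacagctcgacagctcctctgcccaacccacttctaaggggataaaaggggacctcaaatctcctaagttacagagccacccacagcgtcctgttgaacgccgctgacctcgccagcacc
Fzd5: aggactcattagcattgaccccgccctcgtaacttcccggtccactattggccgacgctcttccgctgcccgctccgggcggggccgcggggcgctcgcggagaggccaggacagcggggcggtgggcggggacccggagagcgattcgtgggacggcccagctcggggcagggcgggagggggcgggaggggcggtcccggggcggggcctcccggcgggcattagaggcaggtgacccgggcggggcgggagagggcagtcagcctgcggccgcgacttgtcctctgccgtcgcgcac
The Cldn18 window held 2 matches to AGATAA. The first starts 146 bases before the transcription start, on the opposite strand to the gene, and the second starts 131 bases before it, on the strand of the gene. A second Cldn18 window in the same set, at chr9:99710014-99710313 on the minus strand, held 0 matches. The Krt5 and Fzd5 windows, and both Krt13 windows in the set, also held 0. A match describes the letters in these windows and is not a measurement of binding.

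Over all genes, 1059 were called higher in the knockout hindstomach than in the forestomach (8.34% of those tested) and 705 lower (5.55%). The groups did not overlap for 972 of the higher genes and 600 of the lower genes (7.66% and 4.73% of all genes tested). Over all genes tested, called or not, 11.5% had every knockout library above every forestomach library and 6.81% had every one below. The median log2 fold change of all genes was -0.06. Rescaling the libraries to a common sum moved that median to 0.20 and the calls to 1785 higher and 439 lower. The counts also rested on single libraries: leaving out forestomach control 2 gave 481 higher (3.79%) and 312 lower (2.46%), and leaving out forestomach control 5 gave 1783 higher (14%) and 2576 lower (20.3%). Array weights, which count each library by its fit, gave 3576 higher and 5586 lower. Without knockout 5 there were 1136 higher (8.95%) and 752 lower (5.92%). Leaving out forestomach control 3 gave 6.5% higher and 4.13% lower. Leaving out knockout 1, 2, 3 or 4 in turn gave 5.98%, 5.67%, 6.29% and 6.58% higher, and 4.47%, 3.71%, 4.27% and 4.37% lower. These shares are the background for the list counts given below without a library.

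**Figure D2:**
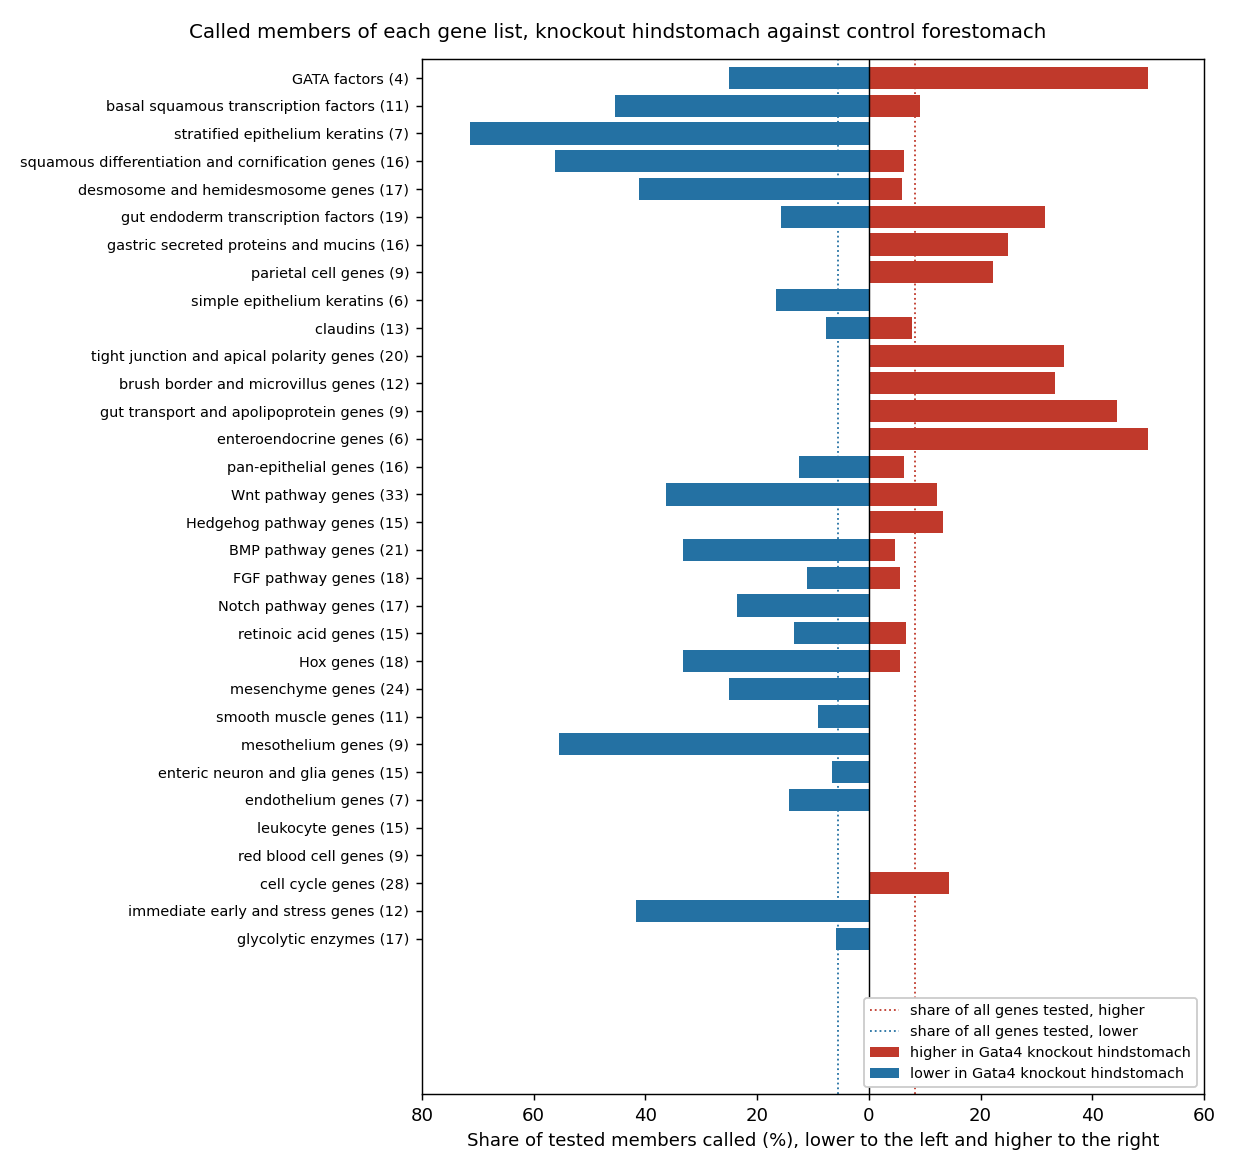
Share of the tested members of each of 32 gene lists (number tested in brackets) called higher (bars to the right) or lower (bars to the left) in knockout hindstomach than in control forestomach; dotted lines mark 8.34% higher and 5.55% lower over all genes. Stratified keratins, squamous differentiation and mesothelium genes have the longest bars to the left, and enteroendocrine, GATA and gut transport genes the longest to the right.

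Genes of the stratified, squamous programme were lower in the knockout hindstomach. Of 12 stratified keratins 7 could be tested, and 5 were lower and 0 higher, with a median log2 fold change of -3.70 over the 7. Among the libraries given here Krt13 and Krt6a reached 1 FPKM only in forestomach. The filter on low values favours a lower level for such genes, so their direction is no independent support. Krt15, a basal keratin, had 21.1, 18.1, 38.7, 22.4 and 57.2 FPKM in knockout libraries, against 1245, 1273 and 104 FPKM in forestomach (log2 fold change -4.21 ± 0.97 SE, adjusted p = 0.0133). Krt6a had 0.0103 to 0.271 FPKM in knockout libraries, against 4.49 to 24.7 FPKM in forestomach (log2 fold change -3.70 ± 0.43 SE, adjusted p = 0.000236). Krt4, the usual partner of Krt13, had 0.739, 0.132, 1.46, 0.199 and 1.06 FPKM in knockout libraries, against 52.2, 40.5 and 1.01 FPKM in forestomach (log2 fold change -3.32 ± 0.86 SE, adjusted p = 0.0234), and here forestomach control 5 fell inside the knockout range. The calls of Krt4 and Krt15 were lost without forestomach control 2 or 3 (adjusted p up to 0.132 for Krt4 and 0.0784 for Krt15). Without forestomach control 2 or 3, 3 of the 7 keratins were lower, and within the libraries with a GC slope below 0 (knockout 1 to 3 and forestomach control 5) 1 of the 7 was. Krt14, the partner of Krt5, did not pass the filter on low values, at 0 to 0.103 FPKM in knockout libraries and 0.155 to 4.52 FPKM in forestomach. The summed FPKM of the 12 keratins was 24.5 to 66.1 in knockout libraries, 144.9 to 1954 in forestomach and 20.3 to 23.9 in hindstomach control.

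Differentiation genes of squamous cells followed the keratins in 9 of 16 tested, with 1 higher (of 24 listed, 1 was not matched in the table and 7 were under the filter). Dapl1, expressed as stratified cells begin to differentiate, had 1.89, 3.28, 8.19, 1.16 and 4.75 FPKM in knockout libraries, against 75.2, 85.9 and 49.5 FPKM in forestomach (log2 fold change -4.02 ± 0.43 SE, adjusted p = 0.000137). Krtdap, a secreted protein of differentiating keratinocytes, was 0 to 0.282 FPKM in knockout libraries, against 2.88 to 14.4 FPKM in forestomach (log2 fold change -3.01 ± 0.34 SE, adjusted p = 0.000198). Lor encodes loricrin of the cornified envelope and had a log2 fold change of -1.94 (adjusted p = 0.00024). Sfn, which encodes stratifin, a checkpoint protein of stratified epithelia, had 0.297, 0.482, 0.473, 0.715 and 2.72 FPKM in knockout libraries, against 80.3, 35.4 and 3.85 FPKM in forestomach (log2 fold change -3.77 ± 0.78 SE, adjusted p = 0.00761). Perp, a p63 target at desmosomes, was at 70.4, 59.7, 107, 22.6 and 28.5 FPKM in knockout libraries, against 263, 323 and 310.2 FPKM in forestomach (log2 fold change -2.57 ± 0.42 SE, adjusted p = 0.00219). Capn6, a calpain-like protein, went against the list at 56.3 to 83.4 FPKM in knockout libraries and 25.2 to 31.3 FPKM in forestomach (log2 fold change 1.30 ± 0.16 SE, adjusted p = 0.000271); it was also 52.2 to 58.6 FPKM in hindstomach control. Without forestomach control 5, 15 of the 16 were lower.

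Adhesion genes that hold stratified cells together were lower in 7 of 17 tested and higher in 1. Pkp1, a desmosomal plaque protein of stratified epithelia, had 0.805, 0.209, 1.202, 0.0786 and 0.199 FPKM in knockout libraries, against 28.9, 40.0 and 5.50 FPKM in forestomach (log2 fold change -3.79 ± 0.58 SE, adjusted p = 0.00144). Dsg3, a desmosomal cadherin of basal layers, was 0.0109 to 0.191 FPKM in knockout libraries and 1.89 to 6.89 FPKM in forestomach (log2 fold change -1.92 ± 0.26 SE, adjusted p = 0.000664). Col17a1, a hemidesmosomal collagen, had 2.15, 1.18, 3.27, 0.598 and 0.889 FPKM in knockout libraries, against 12.1, 45.5 and 7.28 FPKM in forestomach (log2 fold change -2.81 ± 0.56 SE, adjusted p = 0.00644). Pkp2, the plaque protein of simple epithelia, was the member in the other direction: 8.34, 9.87, 9.98, 8.70 and 11.7 FPKM in knockout libraries, against 2.23, 1.98 and 3.16 FPKM in forestomach (log2 fold change 1.64 ± 0.16 SE, adjusted p = 6.63e-05). Pkp1 and Pkp2 thus changed in opposite directions, with no overlap of groups in either. Without forestomach control 5, 11 of the 17 were lower, and without forestomach control 3, knockout 2 or knockout 4, 4 were. Within the libraries with a GC slope below 0, 0 of the 17 were lower and 1 was higher (2.14% and 4.06% of all genes).

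Transcription factors of basal squamous cells divided, with 5 of 11 tested lower and 1 higher. Tfap2c, a transcription factor of the surface ectoderm and basal keratinocytes, had 0.831, 0.727, 1.27, 0.187 and 0.231 FPKM in knockout libraries, against 9.07, 15.6 and 9.67 FPKM in forestomach (log2 fold change -2.92 ± 0.29 SE, adjusted p = 7.22e-05). Tfap2a, its paralog, was 0.240 to 0.672 FPKM in knockout libraries and 1.89 to 3.72 FPKM in forestomach (log2 fold change -1.44 ± 0.17 SE, adjusted p = 0.00024). Pitx1, a homeobox factor, and Bnc1, a zinc-finger factor of basal keratinocytes, had log2 fold changes of -2.25 (adjusted p = 0.00356) and -1.50 (adjusted p = 0.00668). Bnc1 also stands in the mesothelium list. Sox21 was higher, at 24.0, 34.9, 31.9, 16.0 and 23.2 FPKM in knockout libraries, against 8.05, 11.4 and 14.1 FPKM in forestomach (log2 fold change 1.13 ± 0.24 SE, adjusted p = 0.00829), a call lost without forestomach control 2 (adjusted p = 0.0534). Sox2, the factor of the foregut that marks the prospective oesophagus and forestomach, had 126, 199, 177, 81.2 and 99.5 FPKM in knockout libraries and 67.2, 90.1 and 143 FPKM in forestomach, which overlapped (log2 fold change 0.43 ± 0.30 SE, adjusted p = 0.359). Its level in hindstomach control was 64.2 to 78.5 FPKM.

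The genes with the largest increases over the forestomach were led by Cym, described with the stomach products, and by Akr1c19 and Tspan8. Akr1c19, an aldo-keto reductase, had 100.1, 117, 109.8, 75.6 and 92.3 FPKM in knockout libraries, against 0.966, 1.61 and 2.19 FPKM in forestomach (log2 fold change 5.28 ± 0.26 SE, adjusted p = 2.64e-07). Tspan8, a tetraspanin of gut epithelia, had 106, 90.6, 115, 84.9 and 116 FPKM in knockout libraries, against 1.65, 2.23 and 1.58 FPKM in forestomach (log2 fold change 5.19 ± 0.24 SE, adjusted p = 1.82e-07). Both stood far above the forestomach in all 5 knockout libraries. Itih2, a heavy chain of the inter-alpha-trypsin inhibitor, had 20.0, 22.2, 19.2, 20.0 and 22.9 FPKM in knockout libraries, against 0.339, 0.842 and 0.718 FPKM in forestomach (log2 fold change 3.75 ± 0.18 SE, adjusted p = 1.82e-07). Akr1c12, Habp2, Gipc2, Agr2, Ugt2b34, Maob and Vsig1 completed the largest changes by named coding genes, with log2 fold changes of 4.07, 3.80, 3.78, 3.74, 3.41, 3.36 and 3.34. Maob encodes a monoamine oxidase, Vsig1 a junction protein of the glandular stomach and Ugt2b34 a glucuronosyltransferase. Each of the 7 had an adjusted p of 0.000349 or lower. A call and a lack of overlap between the groups were conditions for listing a gene among these largest changes. Akr1c and Ugt2b genes have close copies, as does Marcksl1-ps4 (3.50), and no label says how fragments were divided among such copies.

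These genes can also be set beside the hindstomach controls, a comparison that shares the knockout libraries. Akr1c19 had 148, 134 and 140.2 FPKM in hindstomach control (log2 fold change -0.52 ± 0.26 SE, adjusted p = 0.156 for knockout against hindstomach control). Itih2 had 16.8, 13.8 and 23.2 FPKM there (log2 fold change 0.23 ± 0.18 SE, adjusted p = 0.319). Tspan8 was lower in knockout hindstomach than in hindstomach control, where it had 288, 227 and 255 FPKM (log2 fold change -1.32 ± 0.24 SE, adjusted p = 0.00675). The levels in the knockout libraries therefore ranged from within the hindstomach control range (Itih2) to under it (Tspan8).

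Of the 12 largest decreases without overlap of the groups, Aqp3, S100a14, AA465934 and Snora34 are given here and the others with their lists. Aqp3, a water and glycerol channel of basal stratified cells, had 0.860, 0.218, 2.14, 0.123 and 0.300 FPKM in knockout libraries, against 30.4, 68.7 and 27.3 FPKM in forestomach (log2 fold change -4.63 ± 0.56 SE, adjusted p = 0.000285). S100a14, a calcium-binding protein of stratified epithelia, had 9.93, 7.43, 16.5, 2.76 and 10.7 FPKM in knockout libraries, against 245, 181 and 28.7 FPKM in forestomach (log2 fold change -3.56 ± 0.91 SE, adjusted p = 0.0218), and lost its call without forestomach control 2 or 3 (adjusted p up to 0.118). AA465934, for which the table gives no other name, had a log2 fold change of -3.56 (adjusted p = 0.00117). Snora34, a small nucleolar RNA, is listed at 0 in all 5 knockout libraries and in 1 of the 3 hindstomach controls, and at 16.0, 27.7 and 15.3 FPKM in forestomach.

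Transcription factors of the gut endoderm were higher in 6 of 19 tested and lower in 3. Hnf4g and Hnf4a encode nuclear receptors that drive genes of columnar gut epithelium. Hnf4g had 5.03, 6.05, 5.25, 4.39 and 6.76 FPKM in knockout libraries, against 0.00925, 0.150 and 0.122 FPKM in forestomach (log2 fold change 2.56 ± 0.18 SE, adjusted p = 3.76e-06). Hnf4a had 4.93, 5.84, 3.74, 6.89 and 13.2 FPKM in knockout libraries, against 0.0620, 0.0180 and 0 FPKM in forestomach (log2 fold change 2.84 ± 0.30 SE, adjusted p = 0.000132). Esrrg, an orphan nuclear receptor needed in parietal cells, had 12.1, 7.37, 11.2, 4.51 and 8.96 FPKM in knockout libraries, against 0.358, 0.147 and 0.127 FPKM in forestomach (log2 fold change 2.96 ± 0.31 SE, adjusted p = 0.000121). Foxa3 and Foxa1, pioneer factors of endoderm, had log2 fold changes of 2.01 (adjusted p = 0.000543) and 1.72 (adjusted p = 0.000992). Foxa1 was 66.5 to 124 FPKM in knockout libraries, 18.5 to 43.8 FPKM in forestomach and 91.9 to 101 FPKM in hindstomach control. Hnf4g and Foxa1 were thus inside or next to the hindstomach control range, while Hnf4a and Esrrg, at 18.6 to 24.0 and 38.4 to 61.1 FPKM in hindstomach control, were above the forestomach and below the hindstomach control. The 3 lower members were Klf4, Creb3l1 and Foxp1, at -1.41 (adjusted p = 0.016), -1.19 (adjusted p = 0.018) and -0.49 (adjusted p = 0.036). Klf4 lost its call without forestomach control 3 (adjusted p = 0.0578), Creb3l1 without forestomach control 2 (0.107) and Foxp1 without any of 7 of the 8 libraries (up to 0.0733).

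**Figure D3:**
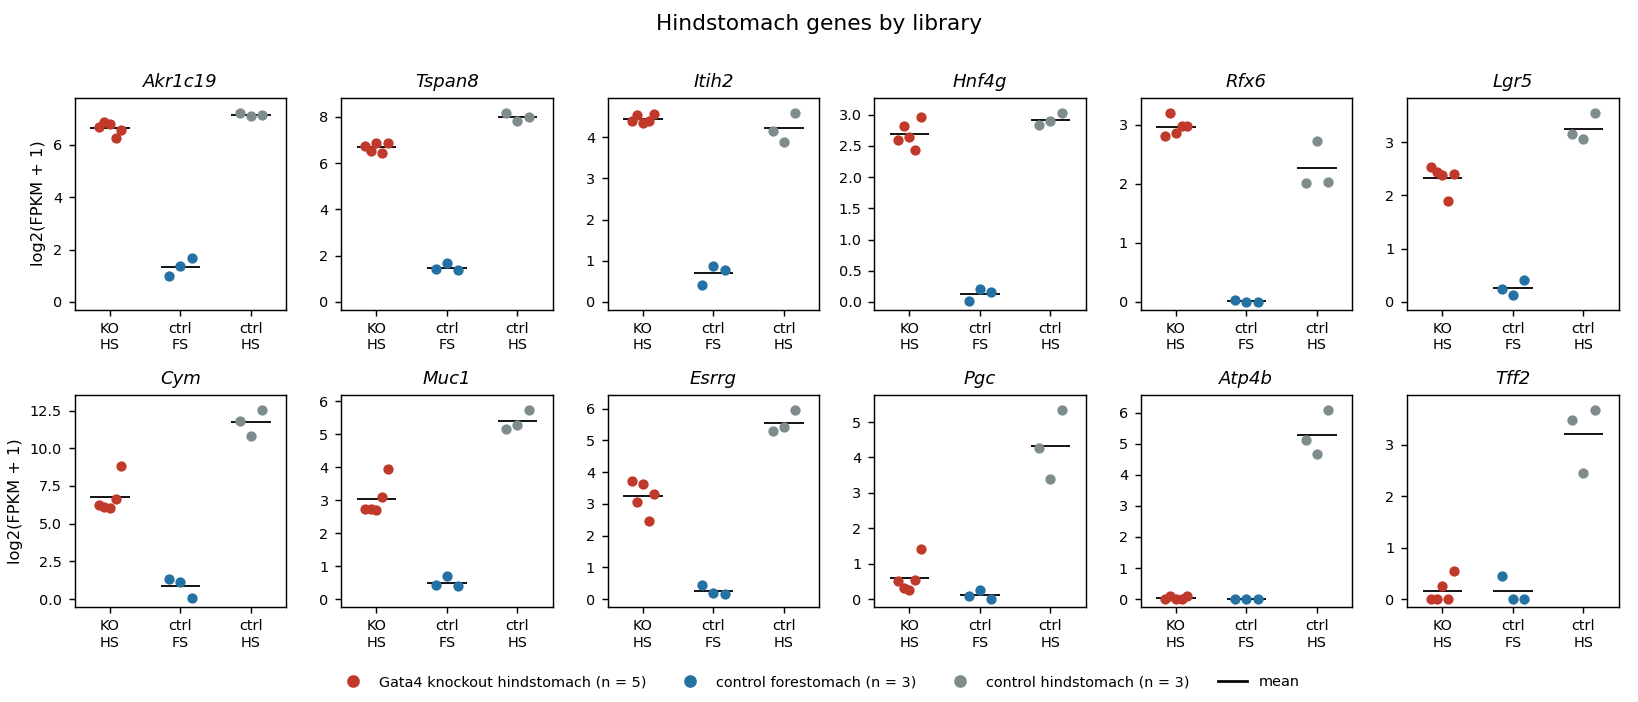
Level of 12 genes of the hindstomach, as log2(FPKM + 1), in each library (KO HS, knockout hindstomach; ctrl FS, control forestomach; ctrl HS, control hindstomach); points are libraries, lines are group means, and each panel has its own axis. Akr1c19, Itih2, Hnf4g and Rfx6 are near or above the hindstomach controls, Cym, Muc1 and Esrrg lie between the regions, and Pgc, Atp4b and Tff2 are near 0 in both knockout and forestomach libraries.

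Secreted products of the glandular stomach were called in few cases. Of 16 tested genes for digestive enzymes, mucins and their partners, 4 were higher in the knockout hindstomach and 0 lower. Cym, the milk-clotting protease chymosin, had 74.1, 66.8, 63.3, 99.9 and 445 FPKM in knockout libraries, against 1.49, 1.199 and 0.0512 FPKM in forestomach (log2 fold change 5.91 ± 0.79 SE, adjusted p = 0.000544), and 3555, 1776 and 5947 FPKM in hindstomach control. Knockout 5 had the highest Cym of its group, and the other 4 were between 63.3 and 99.9 FPKM. Muc1, a membrane mucin, had 5.66, 5.60, 5.51, 7.63 and 14.3 FPKM in knockout libraries, against 0.339, 0.617 and 0.315 FPKM in forestomach (log2 fold change 2.54 ± 0.31 SE, adjusted p = 0.000283). Agr2, a disulphide isomerase of mucus cells, and Ctse, the protease cathepsin E, were the other higher members, at 3.74 (adjusted p = 0.000349) and 2.35 (adjusted p = 0.00898).

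Pgc, which encodes pepsinogen C, had 0.425, 0.251, 0.188, 0.447 and 1.65 FPKM in knockout libraries and 0.0609, 0.186 and 0 FPKM in forestomach (log2 fold change 0.49 ± 0.37 SE, adjusted p = 0.393), where hindstomach controls had 18.1, 9.51 and 39.5 FPKM. Tff2, a trefoil factor of mucous neck cells, had 0, 0, 0.197, 0 and 0.456 FPKM in knockout libraries and 0.366, 0 and 0 FPKM in forestomach (log2 fold change 0.01 ± 0.26 SE, adjusted p = 0.983), with 10.2, 4.51 and 11.8 FPKM in hindstomach control. Gkn3, a gastrokine, is listed at 0 in 4 of the 5 knockout and all 3 forestomach libraries and had 2.72 to 2.90 FPKM in hindstomach control. Against the hindstomach controls 13 of the 16 genes were lower and 0 higher in knockout libraries, where 6.28% of all genes were lower and 6.96% higher.

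Genes of parietal cells, which secrete acid, gave 2 higher and 0 lower of 9 tested. Aqp4, a basolateral water channel, had 6.32, 3.84, 3.52, 2.36 and 5.25 FPKM in knockout libraries, against 0.136, 0.706 and 0.188 FPKM in forestomach (log2 fold change 1.94 ± 0.28 SE, adjusted p = 0.000814). Clic6, an intracellular chloride channel protein, had 17.1, 18.5, 17.0, 15.4 and 27.1 FPKM in knockout libraries, against 5.73, 6.604 and 1.81 FPKM in forestomach (log2 fold change 1.91 ± 0.31 SE, adjusted p = 0.00197). Atp4b, the beta subunit of the proton pump, was 0 to 0.0755 FPKM in knockout libraries, is listed at 0 in all 3 forestomach libraries and had 24.3 to 66.8 FPKM in hindstomach control.

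Of 16 enteroendocrine genes 6 could be tested, and 3 were higher and 0 lower. Rfx6, a winged-helix factor of endocrine progenitors and gut endoderm, had 5.98, 8.19, 6.23, 6.89 and 6.84 FPKM in knockout libraries, against 0.0254, 0 and 0 FPKM in forestomach (log2 fold change 2.95 ± 0.20 SE, adjusted p = 3.38e-06), and 3.05, 5.62 and 3.10 FPKM in hindstomach control, below the knockout libraries (log2 fold change 0.70 ± 0.20 SE, adjusted p = 0.039). Isl1, a LIM homeobox factor of endocrine cells and of stomach mesenchyme, had 25.6, 13.8, 17.5, 24.6 and 17.7 FPKM in knockout libraries, against 3.76, 1.25 and 3.46 FPKM in forestomach (log2 fold change 2.49 ± 0.29 SE, adjusted p = 0.000227). Insm1 had a log2 fold change of 1.38 (adjusted p = 0.015), lost without forestomach control 2 or 3 (adjusted p up to 0.0746). The hormone genes Gast, Sst and Ghrl were under the filter, each at 0 in at least 4 knockout libraries and in all 3 forestomach libraries.

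Tight-junction and polarity genes were higher in 7 of 20 tested and lower in 0. Ocln, which encodes occludin, had 29.0, 30.8, 34.5, 27.7 and 35.1 FPKM in knockout libraries, against 5.87, 15.7 and 8.09 FPKM in forestomach (log2 fold change 1.67 ± 0.22 SE, adjusted p = 0.000544). Cgnl1 and Magi3, cytoplasmic partners of the junction, had log2 fold changes of 1.14 (adjusted p = 0.0175) and 0.70 (adjusted p = 0.0175), the second lost without forestomach control 2 (adjusted p = 0.0997). Without forestomach control 2, 3 of the 20 were higher (3.79% of all genes). Without forestomach control 5 there were 8 higher and 1 lower (14% and 20.3% of all genes). Claudins gave 1 higher, Cldn18, and 1 lower of 13 tested. The lower one was Cldn15 at -1.22 (adjusted p = 0.0434), a call lost without any of 5 of the 8 libraries (adjusted p up to 0.221). Without forestomach control 5, 1 claudin was higher and 3 were lower, beside the same shares of all genes.

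Of 12 brush-border and microvillus genes tested, 4 were higher and 0 lower. Eps8, an actin-capping protein, Pls1, an actin bundler, and Myo1d, a motor of the brush border, had log2 fold changes of 0.99 (adjusted p = 0.0071), 1.01 (adjusted p = 0.00849) and 1.01 (adjusted p = 0.0147). Vil1, which encodes villin, had 0.778, 0.584, 0.665, 2.29 and 4.69 FPKM in knockout libraries, against 0.0503, 0.0767 and 0.0184 FPKM in forestomach (log2 fold change 1.22 ± 0.35 SE, adjusted p = 0.0376). Vil1 was highest in knockout 4 and 5, and its call was lost without knockout 4 or forestomach control 2 or 3 (adjusted p up to 0.12). Gut transport and apolipoprotein genes gave 4 higher and 0 lower of 9 tested: Akr1c19, Sult1d1 at 1.45 (adjusted p = 0.000193), Ttr at 2.33 (adjusted p = 0.00567) and Afp at 1.44 (adjusted p = 0.0384). Afp overlapped between the groups, and its call was lost without any of 6 of the 8 libraries (adjusted p up to 0.0821).

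General epithelial genes gave 1 higher and 2 lower of 16 tested, and 2 higher and 4 lower without forestomach control 5 (14% and 20.3% of all genes). Epcam, the surface marker of epithelial cells, had 254, 326, 395, 203 and 309 FPKM in knockout libraries and 121, 224 and 225 FPKM in forestomach, which overlapped (log2 fold change 0.67 ± 0.24 SE, adjusted p = 0.09); without forestomach control 5 the adjusted p was 0.0386. Prom1, an apical membrane protein, had 40.7, 54.3, 43.2, 38.8 and 35.8 FPKM in knockout libraries, against 9.001, 12.3 and 12.2 FPKM in forestomach (log2 fold change 1.84 ± 0.15 SE, adjusted p = 1.12e-05), and 41.3 to 49.1 FPKM in hindstomach control. Ehf, an ETS factor, was 3.58 to 23.3 FPKM in knockout libraries and 21.1 to 33.0 FPKM in forestomach, and its adjusted p of 0.0421 passed 0.05 without any of 6 of the 8 libraries (up to 0.133). The simple-epithelium keratins gave 0 higher and 1 lower of 6 tested, and 3 lower without forestomach control 5 (20.3% of all genes).

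Signalling genes were next, and several of them are made by the mesenchyme under the epithelium. Mesenchyme genes themselves were lower in the knockout libraries in 6 of 24 tested and higher in 0, with a summed FPKM of the 26 genes of 455.1 to 1106 in knockout libraries, 1234 to 1894 in forestomach and 116.8 to 334.5 in hindstomach control. None of the mesenchyme genes was listed at 0 in all 8 libraries. Col1a1, a fibrillar collagen, had 14.02, 5.69, 7.80, 17.5 and 16.9 FPKM in knockout libraries, against 98.1, 47.4 and 45.7 FPKM in forestomach (log2 fold change -2.29 ± 0.40 SE, adjusted p = 0.00299). Twist1, a mesenchymal transcription factor, had 3.85, 2.14, 2.29, 2.35 and 1.28 FPKM in knockout libraries, against 15.2, 9.73 and 14.7 FPKM in forestomach (log2 fold change -2.09 ± 0.30 SE, adjusted p = 0.000858). Dcn, the proteoglycan decorin, was not called at 129, 65.9, 136, 44.9 and 32.0 FPKM in knockout libraries and 175, 120.5 and 176 FPKM in forestomach (log2 fold change -1.14 ± 0.47 SE, adjusted p = 0.134). Meox2 and Sparc, a homeobox factor and a matrix protein, had log2 fold changes of -1.90 (adjusted p = 0.00355) and -1.57 (adjusted p = 0.0172), the second lost without forestomach control 2 (adjusted p = 0.0967). Of the 24, 9 were lower without forestomach control 5, 3 without forestomach control 2 and 4 without knockout 2. In such libraries fewer cells of a type and less RNA per cell cannot be told apart. The part of mesenchymal RNA in the results that follow was not tested.

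Mesothelium genes, from the outer lining of the stomach, were lower in 5 of 9 tested and higher in 0, and their summed FPKM was 46.6 to 151.1 in knockout libraries, against 188.1 to 461.5 in forestomach. Wt1 had 7.46, 4.58, 5.47, 7.73 and 7.37 FPKM in knockout libraries, against 38.2, 17.6 and 56.8 FPKM in forestomach (log2 fold change -2.23 ± 0.35 SE, adjusted p = 0.00163). Upk1b and Gpm6a had log2 fold changes of -1.997 (adjusted p = 0.00224) and -2.16 (adjusted p = 0.000879), and Lrrn4 -1.58 (adjusted p = 0.0016). Without forestomach control 5, 8 of the 9 were lower. Smooth muscle genes gave 1 lower of 11 tested (Mylk, -1.76 (adjusted p = 0.0145), lost without forestomach control 2 at an adjusted p of 0.0738), but 9 of the 11 were lower without forestomach control 5. Enteric neuron and glia genes gave 1 lower of 15 (Ncam1, -1.29 (adjusted p = 0.0247)) and endothelium genes 1 lower of 7 (Esam, -1.04 (adjusted p = 0.0382)). Ncam1 lost its call without knockout 2 or 3 or forestomach control 2 (adjusted p up to 0.116). Esam lost its call without knockout 2, 3, 4 or 5 or forestomach control 2 or 3 (adjusted p up to 0.196). In leukocyte genes 0 of 15 and in red cell genes 0 of 9 were called in either direction, with Lyz2 at -1.12 (adjusted p = 0.226), Mrc1 at -0.54 (adjusted p = 0.494), Hbb-b1 at -1.98 (adjusted p = 0.0547) and Hbb-y at 1.26 (adjusted p = 0.179). Hbb-b1 passed 0.05 without knockout 5, forestomach control 3 or forestomach control 5 (adjusted p as low as 0.0162). Without forestomach control 5, 3 of 15 leukocyte, 3 of 9 red cell and 2 of 15 neuron and glia genes were lower, beside 20.3% of all genes. Without knockout 5 or forestomach control 3, 2 red cell genes were lower, beside 5.92% and 4.13% of all genes.

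Wnt pathway genes were lower in 12 of 33 tested and higher in 4. Among ligands and their enhancers, Wnt4 had 0.882, 0.764, 0.886, 1.02 and 2.19 FPKM in knockout libraries, against 23.2, 32.3 and 4.09 FPKM in forestomach (log2 fold change -2.93 ± 0.62 SE, adjusted p = 0.00885), and the adjusted p was 0.0537 without forestomach control 2. Rspo1, a secreted enhancer of Wnt signalling, had 2.24, 2.06, 1.87, 2.44 and 1.96 FPKM in knockout libraries, against 16.7, 10.5 and 11.2 FPKM in forestomach (log2 fold change -2.12 ± 0.29 SE, adjusted p = 0.000563). Among receptors, Fzd5 and Fzd7 were higher (2.79 and 0.69), the second lost without any of 4 of the 8 libraries (adjusted p up to 0.127). Lgr5, the R-spondin receptor of gut stem cells, had 4.79, 4.40, 4.24, 2.73 and 4.28 FPKM in knockout libraries, against 0.188, 0.0996 and 0.323 FPKM in forestomach (log2 fold change 2.07 ± 0.19 SE, adjusted p = 3.58e-05). Lef1, a transcription factor of the pathway, and Wif1, a secreted Wnt inhibitor, had log2 fold changes of -1.65 (adjusted p = 0.000173) and -1.72 (adjusted p = 0.000244). Wnt4, Rspo1, Lef1 and Wif1 were thus lower in the knockout libraries and Lgr5 and Fzd5 higher, all without overlap of the groups. Without forestomach control 2, 7 of the 33 were lower and 2 higher.

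Hedgehog genes gave 2 higher and 0 lower of 15 tested. Without forestomach control 5 there were 1 higher and 5 lower (14% and 20.3% of all genes). Without forestomach control 2 or knockout 4 there were 0 in either direction. Ihh, a ligand made by glandular epithelium, had 1.46, 2.14, 1.16, 6.90 and 17.6 FPKM in knockout libraries, against 0.0326, 0.0993 and 0 FPKM in forestomach (log2 fold change 2.19 ± 0.56 SE, adjusted p = 0.0229), and 28.8, 25.1 and 23.3 FPKM in hindstomach control. Ihh was highest in knockout 4 and 5, which also had the highest Gata4 and were the knockout libraries with a GC slope above 0; the part of either in its level was not tested. Ptch1, the receptor and a target of the pathway, had a log2 fold change of 1.05 (adjusted p = 0.0372). Both calls rest on single libraries, since Ihh lost its call without forestomach control 2 (adjusted p = 0.0822), forestomach control 3 or knockout 4, and Ptch1 without forestomach control 5 (log2 fold change 0.60, adjusted p = 0.0575) and without 4 other libraries. Shh had 27.0 to 70.6 FPKM in knockout libraries and 19.9 to 67.7 FPKM in forestomach (log2 fold change 0.00 ± 0.40 SE, adjusted p = 0.995).

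BMP pathway genes were lower in 7 of 21 tested and higher in 1. Bmp4, a ligand of stomach mesenchyme, had 2.93, 3.04, 3.07, 2.84 and 2.47 FPKM in knockout libraries, against 27.4, 14.2 and 15.7 FPKM in forestomach (log2 fold change -2.32 ± 0.25 SE, adjusted p = 0.000133). Id3, a target of the pathway, had 2.89, 2.03, 3.44, 4.22 and 8.07 FPKM in knockout libraries, against 59.0, 33.2 and 10.5 FPKM in forestomach (log2 fold change -2.59 ± 0.46 SE, adjusted p = 0.00333). Msx2, another target, and Fst, the secreted inhibitor follistatin, had log2 fold changes of -1.40 (adjusted p = 0.000281) and -2.28 (adjusted p = 0.00236). Bmpr1b, a receptor, was the higher member, at 14.49, 10.9, 12.7, 13.5 and 11.1 FPKM in knockout libraries, against 3.36, 3.21 and 5.66 FPKM in forestomach (log2 fold change 1.44 ± 0.17 SE, adjusted p = 0.000285).

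FGF genes gave 1 higher and 2 lower of 18 tested. Fgf10, a mesenchymal ligand, had 7.75, 4.14, 6.20, 14.8 and 4.79 FPKM in knockout libraries, against 2.12, 1.15 and 2.58 FPKM in forestomach (log2 fold change 1.44 ± 0.39 SE, adjusted p = 0.0291), a call lost without knockout 1 or forestomach control 2 or 3 (adjusted p up to 0.112). Fgf7, another mesenchymal ligand, had 0.561, 0.758, 0.271, 0.389 and 0.241 FPKM in knockout libraries, against 4.35, 4.21 and 6.43 FPKM in forestomach (log2 fold change -2.05 ± 0.23 SE, adjusted p = 0.000161). Fgf10 and Fgf7 thus changed in opposite directions, and the part of mesenchymal RNA in either was not tested. Spry1, a feedback inhibitor, was at -0.82 (adjusted p = 0.0116), and at an adjusted p of 0.0644 without forestomach control 2.

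Notch genes gave 0 higher and 4 lower of 17 tested. The ligand Jag2 was 0.327 to 0.642 FPKM in knockout libraries, against 1.47 to 5.30 FPKM in forestomach (log2 fold change -1.36 ± 0.25 SE, adjusted p = 0.00447), and the target Hes1 was at -0.76 (adjusted p = 0.00831). Dlk1, a non-canonical ligand, and Nrarp, a target and inhibitor, were at -1.69 (adjusted p = 0.0252) and -0.63 (adjusted p = 0.0418). Dlk1 lost its call without knockout 2 or 3 or forestomach control 2 or 3 (adjusted p up to 0.134). Nrarp lost its call without knockout 1, 3, 4 or 5 or forestomach control 2 or 3 (adjusted p up to 0.217). The 4 lower Notch genes became 2 without forestomach control 2 or 3 or knockout 3, and 6 were lower without forestomach control 5 (20.3% of all genes). Retinoic acid genes gave 1 higher and 2 lower of 15 tested, but 0 higher and 7 lower without forestomach control 5 (14% and 20.3% of all genes). Cyp26a1, which degrades retinoic acid, and Aldh1a3, which makes it, were lower at -1.61 (adjusted p = 0.00272) and -1.07 (adjusted p = 0.00425). Rbp4, the carrier of retinol, was higher at 1.24 (adjusted p = 0.0285), lost without any of 4 of the 8 libraries (adjusted p up to 0.0748).

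Hox genes, which carry position along the body axis and in the stomach are expressed mainly in mesenchyme, were lower in 6 of 18 tested and higher in 1. Hoxc6 had 0.784, 1.62, 1.60, 0.104 and 0.122 FPKM in knockout libraries, against 21.6, 29.1 and 13.6 FPKM in forestomach (log2 fold change -3.64 ± 0.39 SE, adjusted p = 0.000135). Hoxc8 had 0.329, 0.510, 0.344, 0.0222 and 0.0393 FPKM in knockout libraries, against 6.91, 11.7 and 7.59 FPKM in forestomach (log2 fold change -2.95 ± 0.20 SE, adjusted p = 3.76e-06). Hoxb6, Hoxb7, Hoxb8 and Hoxc5 were the other lower members, with log2 fold changes of -2.21, -2.48, -2.11 and -2.08 and adjusted p of 0.000709 or lower. Hoxa4 was higher, at 13.2, 15.2, 13.8, 17.1 and 15.4 FPKM in knockout libraries, against 9.05, 5.04 and 5.37 FPKM in forestomach (log2 fold change 1.12 ± 0.28 SE, adjusted p = 0.0193), with 1.97, 3.85 and 1.05 FPKM in hindstomach control. Its call was lost without forestomach control 3 (adjusted p = 0.0772). Hoxb6, Hoxb7, Hoxb8, Hoxc5, Hoxc6 and Hoxc8 were thus lower, Hoxa4 was above both control regions, and 11 of the 18 were not called. The part of mesenchymal RNA in these levels was not tested.

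Cell cycle genes were higher in 4 of 28 tested and lower in 0, with 6 higher and 2 lower without forestomach control 5 (14% and 20.3% of all genes). Mki67 had 82.0, 85.3, 76.4, 72.0 and 61.0 FPKM in knockout libraries, against 32.0, 45.7 and 54.9 FPKM in forestomach (log2 fold change 0.78 ± 0.16 SE, adjusted p = 0.00829). Top2a had 147, 178, 162, 150.1 and 125 FPKM in knockout libraries, against 79.8, 102 and 84.6 FPKM in forestomach (log2 fold change 0.77 ± 0.14 SE, adjusted p = 0.00405). Mcm6, of the replicative helicase, and Ccnb1, a mitotic cyclin, were at 0.75 (adjusted p = 0.00829) and 0.45 (adjusted p = 0.0372), and Ccnb1 lost its call without any of 6 of the 8 libraries (adjusted p up to 0.0978). With the GC slope as a covariate 14 of the 28 were higher and 1 lower, against 24% and 12.3% of all genes.

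Immediate early and stress genes gave 0 higher and 5 lower of 12 tested. Fos had 0.488, 0.382, 1.14, 0.483 and 0.608 FPKM in knockout libraries, against 4.53, 4.74 and 3.68 FPKM in forestomach (log2 fold change -1.73 ± 0.22 SE, adjusted p = 0.000394). Hspa1b, an inducible heat-shock protein, had 0.483, 0.359, 1.37, 0.424 and 0.400 FPKM in knockout libraries, against 4.20, 2.84 and 4.24 FPKM in forestomach (log2 fold change -1.59 ± 0.21 SE, adjusted p = 0.000453). Both were also low in the hindstomach controls, at 0.343 to 0.493 FPKM for Fos and 0.379 to 0.463 FPKM for Hspa1b. Hspb1, a small heat-shock protein that is abundant in stratified epithelia, was at -4.05 (adjusted p = 0.0146) with overlapping groups, and Atf3 at -1.20 (adjusted p = 0.0231). These lost their calls without forestomach control 2 (adjusted p = 0.086 for Hspb1 and 0.125 for Atf3). Of the 12, 2 were lower without forestomach control 2, 3 without knockout 2 and 8 without forestomach control 5. Of 17 glycolysis genes 1 was lower, the glucose transporter Slc2a1 (-1.40 (adjusted p = 0.0349)), and 0 higher. With the GC slope as a covariate 9 of the 17 were higher and 1 lower, against 24% and 12.3% of all genes. The median log2 fold change of the 17 was -0.265, but 0.679 with that covariate and -1.227 without forestomach control 5.

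The knockout level could also be placed against both control regions at once, with the reservation that the comparisons share libraries. All 3 hindstomach controls had a GC slope above 0 and knockout 1, 2 and 3 a slope below 0. The comparison with hindstomach control therefore also differs in GC slope. Genes called against both controls fell into 4 classes: 92 above both (0.725% of genes tested), 49 below both (0.386%), 137 above forestomach and below hindstomach control (1.08%) and 85 below forestomach and above hindstomach control (0.67%). In the first pair of classes the knockout mean lay outside both control means, and in the second pair between them.

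Above both controls, Chrdl1, a secreted BMP antagonist, had 16.1, 21.4, 20.7, 17.2 and 13.6 FPKM in knockout libraries, against 1.97, 1.78 and 4.14 FPKM in forestomach (log2 fold change 2.41 ± 0.24 SE, adjusted p = 7.66e-05) and 3.22, 5.41 and 5.01 FPKM in hindstomach control (log2 fold change 1.77 ± 0.24 SE, adjusted p = 0.00129). Has2, which makes hyaluronan, had 11.2, 15.4, 11.6, 7.74 and 4.84 FPKM in knockout libraries, against 1.92, 0.833 and 2.31 FPKM in forestomach (log2 fold change 2.01 ± 0.36 SE, adjusted p = 0.00329) and 2.38, 3.31 and 0.911 FPKM in hindstomach control (log2 fold change 1.80 ± 0.36 SE, adjusted p = 0.00975). Sim1, a bHLH-PAS transcription factor, had 2.70, 3.87, 3.10, 2.09 and 2.60 FPKM in knockout libraries, against 0, 0.0210 and 0.0151 FPKM in forestomach (log2 fold change 1.92 ± 0.15 SE, adjusted p = 1.02e-05) and 0.214, 0.434 and 0.139 FPKM in hindstomach control (log2 fold change 1.61 ± 0.15 SE, adjusted p = 0.000143). All 5 knockout libraries were above all 6 control libraries for each of these 3 genes. A call against both controls and a large change from both were conditions for naming them, so this separation is no independent result. Neil2, a DNA glycosylase, was 4.73 to 11.6 FPKM in knockout libraries, 0.552 to 1.04 FPKM in forestomach and 1.33 to 1.66 FPKM in hindstomach control. Six2, a homeobox factor, was 4.33 to 16.3 FPKM in knockout libraries, 0.117 to 1.17 FPKM in forestomach and 0.794 to 3.06 FPKM in hindstomach control. Fgf10 was the sixth gene of this class by size.

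Below both controls, Mt2, a metallothionein, had 22.7, 27.5, 30.5, 26.4 and 76.4 FPKM in knockout libraries, against 121, 155 and 90.8 FPKM in forestomach (log2 fold change -1.83 ± 0.34 SE, adjusted p = 0.00434) and 155, 146 and 188 FPKM in hindstomach control (log2 fold change -2.26 ± 0.34 SE, adjusted p = 0.00223). Krt23, a keratin of simple epithelia, had 1.41, 1.08, 1.22, 1.47 and 2.67 FPKM in knockout libraries, against 14.8, 16.1 and 5.41 FPKM in forestomach (log2 fold change -2.25 ± 0.46 SE, adjusted p = 0.00743) and 10.7, 6.02 and 13.5 FPKM in hindstomach control (log2 fold change -2.07 ± 0.46 SE, adjusted p = 0.0159). Rplp1, a ribosomal protein with many pseudogene copies, was 80.7 to 222 FPKM in knockout libraries, 459.9 to 1267 FPKM in forestomach and 349 to 492 FPKM in hindstomach control. Mreg, Slc2a1 and Cd81 were the next by size, at log2 fold changes against forestomach of -1.27 (adjusted p = 0.0055), -1.40 (adjusted p = 0.0349) and -1.40 (adjusted p = 0.0206). In Slc2a1 and Cd81 the groups overlapped, since knockout 5 was above forestomach control 5. Slc2a1 lost its call without any of 6 of the 8 libraries (adjusted p up to 0.151, with a log2 fold change of -0.92 without forestomach control 3), and Cd81 without forestomach control 2 or 3 or knockout 2 (up to 0.116). Knockout 5 was the highest of its group for Mt2, Krt23, Rplp1, Slc2a1 and Cd81.

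**Figure D4:**
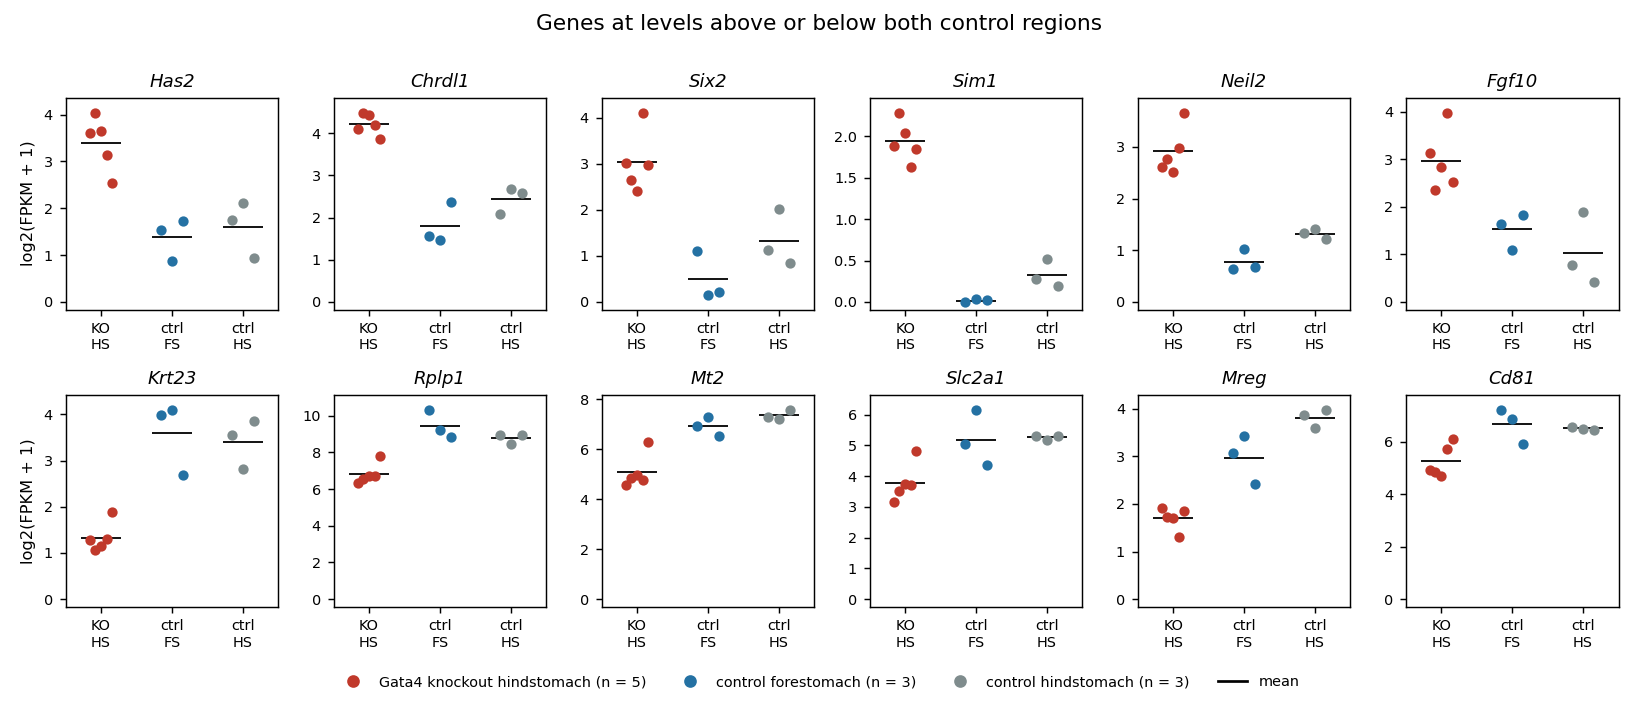
Level of the 6 genes furthest above both control regions (upper row) and the 6 furthest below both (lower row), as log2(FPKM + 1), in each library (KO HS, knockout hindstomach; ctrl FS, control forestomach; ctrl HS, control hindstomach); points are libraries, lines are group means, and each panel has its own axis. In the upper row all 5 knockout libraries lie above every control library, and in the lower row knockout 5 lies closest to the controls for Mt2 and Rplp1. Genes were chosen by a call against both controls, so their separation is no independent result.

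At intermediate levels with the hindstomach control higher, Cfi, a complement regulator, had 13.03, 6.34, 8.39, 7.96 and 17.1 FPKM in knockout libraries, against 0.448, 0.396 and 0.114 FPKM in forestomach (log2 fold change 3.06 ± 0.34 SE, adjusted p = 0.000163) and 62.6, 35.5 and 89.2 FPKM in hindstomach control (log2 fold change -2.44 ± 0.34 SE, adjusted p = 0.00145). Cym, Cldn18, Muc1, Ctse and Esrrg were the other 5 of the 6 largest of that class. With the forestomach higher, Serpinb5, the serpin maspin of stratified epithelia, had 4.99, 3.74, 12.2, 1.40 and 2.02 FPKM in knockout libraries, against 26.2, 38.6 and 33.9 FPKM in forestomach (log2 fold change -2.78 ± 0.50 SE, adjusted p = 0.00348) and 0.355, 0.244 and 0.0987 FPKM in hindstomach control (log2 fold change 1.99 ± 0.50 SE, adjusted p = 0.025). Trp63 stood beside it, and Fst, Mylk, Cav1 and Col14a1, which are expressed in mesenchyme or muscle, made up the 6. Cav1 was 21.3 to 88.3 FPKM in knockout libraries, 117 to 157 FPKM in forestomach and 2.91 to 11.5 FPKM in hindstomach control, and its call against forestomach was lost without any of 5 of the 8 libraries (adjusted p up to 0.0997). Col14a1 had a log2 fold change of -1.73 (adjusted p = 0.00387) against forestomach. Class sizes depended on the libraries used: without knockout 5 they were 250, 191, 154 and 102 in the order given, and without forestomach control 5 they were 428, 1183, 158 and 123. Leaving out any 1 of the other 6 libraries gave 40 to 50, 15 to 30, 88 to 113 and 29 to 74. They also depended on the fit, at 221, 29, 123 and 60 after rescaling to a common sum, 2440, 4218, 353 and 447 with array weights, and 11, 2, 21 and 4 with a block for the library numbers. With the GC slope as a covariate the class sizes were 194, 56, 227 and 148. Within the libraries with a GC slope above 0 they were 51, 34, 78 and 18.

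The comparison was repeated within the libraries of each sign of the GC slope. In knockout 4 and 5 against forestomach control 2 and 3, 875 genes were higher (6.89%) and 865 lower (6.81%). In knockout 1, 2 and 3 against forestomach control 5 alone, 516 were higher (4.06%) and 272 lower (2.14%); that fit assumes that a single library varies like the other groups. Of the 136 named genes called over all libraries, 136 had the same direction within both signs. The subsets hold the same libraries that gave the calls. Where the groups do not overlap, the direction within each subset is fixed in advance. The shared direction is therefore no independent test of the GC slope. Krt13 had a log2 fold change of -7.75 where the slope was above 0 and -1.97 where it was below 0, and Krt5 -6.83 and -2.74. Neither was called where the slope was below 0 (adjusted p = 0.14 for Krt13 and 0.161 for Krt5). Of the 75 named genes called lower, 63 were also called where the slope was above 0 and 37 where it was below 0. Of the 61 called higher, 56 and 45 were. The log2 fold change differed by more than 1 between the signs in 28 of the 75 and in 6 of the 61. Ihh was among the 6, at 3.51 where the slope was above 0 and 1.35 where it was below 0, and Tspan8, at 5.09 and 5.34, was not.

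**Figure D5:**
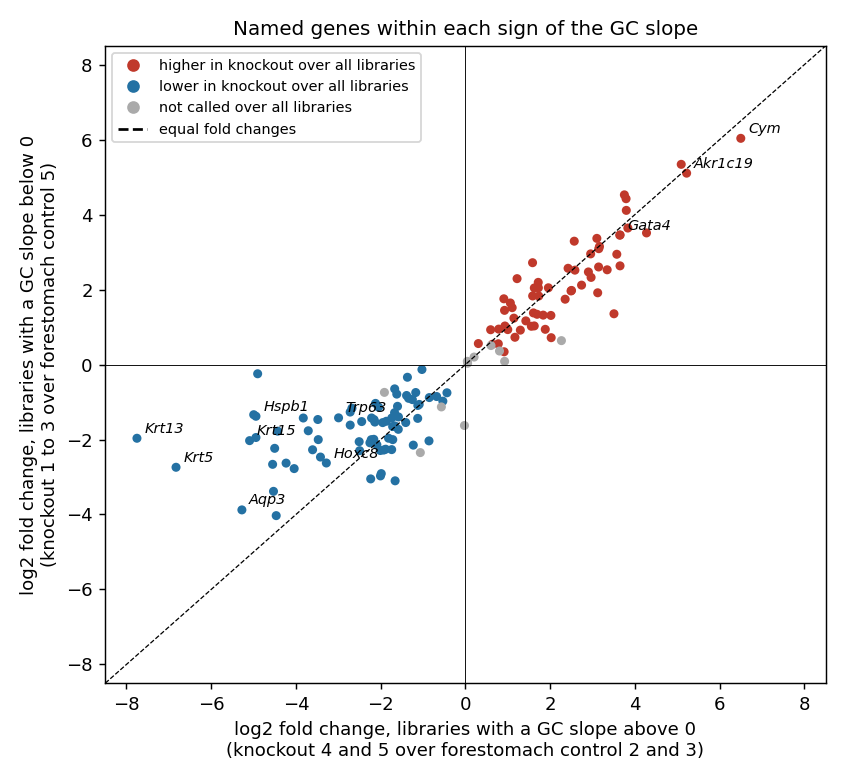
Log2 fold change of each named gene, knockout hindstomach over control forestomach, in the libraries with a GC slope above 0 (horizontal axis) and below 0 (vertical axis); points are genes, coloured by their call over all libraries, and the dashed line marks equal values. Most genes called higher lie within 1 of the line, and Krt13, at -7.75 and -1.97, is among the genes furthest above it on the left.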

How the data were processed

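The authors deposited 1 table of FPKM values with a column for each library. Per the labels' protocols, RNA was extracted on NucleoSpin columns and made into directional libraries with an NEBNext Ultra II kit. The submitters' processing notes name mm9; no source used here gives the aligner, the quantification program or the annotation. Of 22906 entries, 108 exact duplicates were dropped, and 12694 of 22798 genes reached 1 FPKM in 3 or more of the 14 libraries and were kept. Some genes reached 1 FPKM in only 1 of the knockout, forestomach control and hindstomach control groups. These include Krt13, Krt6a, Krtdap, Lor, Dsg3, Tfap2a, Lef1, Wif1, Fgf7 and Hoxc8 (forestomach) and Sim1 (knockout). The filter favours the observed direction for such genes, so that direction is no independent support. Values were analysed as log2(FPKM + 1), which understates the change of weakly expressed genes. One mean per group was fitted over all 14 libraries with limma 3.58.1 in R 4.3.3 (eBayes with trend and robust options), and p-values were adjusted over all 12694 genes. FPKM holds no counts, so relative depth came from the commonest ratio of values under 0.1 FPKM in pairs of libraries (90 of 91 pairs agreed within 0.05 log2). GC content came from GENCODE M21 transcripts and was matched for 99.33% of genes. In simulated data 85% of genes changed by 2 on the log2 scale and 41% of those changed by 1 were recovered in this comparison (200 changed of 12694), with 3 false calls. The simulated noise was independent between genes and libraries. It held no shift shared across a library, such as the GC slope, so these rates do not cover such shifts.

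Named genes are the GATA factors, the 5 markers, the 12 largest called changes in each direction without overlap (predicted models left out), up to 4 called members of each list, up to 3 against its majority, and the 6 largest of each class against both controls. Foxa1, Sox2, Pgc, Tff2, Atp4b, Epcam, Perp, Wnt4, Rspo1, Id3, Hoxc5, Hoxb7, Dcn and Krt4, and the genes of lists given only as values, were added after their values were seen. A few genes that this rule names are not reported here. The members and lists were chosen with earlier results of these data known. Alternatives covered pseudocounts, filters, scaling, weights, the GC slope, a replicate block and leaving out each library.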

Additional observations from a re-analysis of the deposited data

Results flagged for a closer look

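Among the 147 named genes, the 5 knockout libraries were tested for a single library far from the others on the log2(FPKM + 1) scale, and 12 gave one. Chance gives about 1 in 20. Knockout 5 was the high library in 7 of the 12. Its values were 444.7 FPKM for Cym (group median 74.1), 2.72 for Sfn (0.482), 12.3 for Myo1d (6.94), 222.5 for Rplp1 (104.7), 76.4 for Mt2 (27.5), 1.65 for Pgc (0.425) and 2.19 for Wnt4 (0.886). This library also had the highest Gata4 of its group, 59.6 FPKM, and a GC slope of 0.489, and the part of either in these values was not tested.

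Knockout 4 was the low library for Akr1c12 at 50.1 FPKM (group median 64.5), Lgr5 at 2.73 (4.28) and Msx2 at 0.196 (0.456). Knockout 3 was the high library for Krt13 at 0.866 FPKM (0.0764) and Hspa1b at 1.37 (0.424).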

How the results depend on the processing

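The number of genes higher in the knockout hindstomach was 1059 and of genes lower 705. Rescaling to a common sum gave 1785 and 439, the 8 compared libraries alone 519 and 370, array weights 3576 and 5586, and a test against a log2 fold change of 1 gave 50 and 27. The GC slope as a covariate gave 3044 and 1560 and included all 1059 and 705, and the libraries with a slope below 0 gave 516 and 272. A filter at 5 FPKM gave 423 lower. Leaving out 1 library gave 481 to 1783 higher and 312 to 2576 lower, with the lowest without forestomach control 2 and the highest without forestomach control 5. Without knockout 5 and forestomach control 5 together, an alternative chosen after seeing the data, there were 2396 and 3953. With the exception of the replicate block given below, counts under the other pseudocounts, filters, scalings and fits stayed within 1.5 times the main count. The causes were not tested. The median log2 fold change of all genes was 0.20 with a common sum, 0.10 with the GC covariate, 0.16 with a slope below 0, -0.18 with array weights and without forestomach control 5, and -0.20 without both libraries.

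Same-numbered libraries of the 2 groups deviated in opposite directions (correlations of -0.575, -0.657 and -0.871 for numbers 2, 3 and 5). Their GC slopes also had opposite signs at each of these numbers, so the correlations cannot decide whether the numbers pair the libraries. With a replicate block there were 298 higher and 244 lower. Gata4 kept its direction and its call in all alternatives, with log2 fold changes of 2.09 to 3.88 and adjusted p up to 0.0416. Of the 136 named genes called, 99 stayed called in all 8 fits that leave out 1 library, and 105 without forestomach control 2. No named gene that was called changed direction under any alternative. The alternatives share libraries with the main fit, so they are no independent test of direction. Among uncalled genes, Mrc1 changed sign with array weights (log2 fold change 0.14) and without both libraries (0.11), and fits that leave out 1 library gave it -0.91 to 0.015. Tff2 changed sign with the block (-0.038) and without both libraries (-0.16), and fits that leave out 1 library gave it -0.085 to 0.16. Atp4b changed sign with the block (-0.060).

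Absolute depth is unknown, 1 forestomach library stands apart from the other two, and region, genotype and cross differ together, so these cannot be told apart.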
